A study of Mus musculus with 2 samples.

Results

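Immunoglobulin constant genes encode the part of an antibody that sets its class, and the J chain is the small protein that links antibody units into polymers. Both were measured here in RNA from sorted regulatory T cells (Treg cells), which make no antibody. The genes described are the heavy chain constant genes Igha, Ighm, Ighd, Ighg1, Ighg2b, Ighg2c, Ighg3 and Ighe, the kappa light chain constant gene Igkc, and Jchain. They were taken by gene name from the deposited table, which gave 10 genes of 55246 loci. The series has 2 libraries, from cells labelled Tregs of the colon lamina propria of female mice. The lamina propria is the connective tissue beneath the lining of the gut. The WT library carries wild-type Foxp3 and the Exon2KO library a Foxp3 allele without exon 2. Foxp3 is the transcription factor that defines Treg cells. Strain, age, number of mice pooled and sorting scheme are not given in the sources used here.

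Each genotype has 1 library, so no difference below could be set against a spread between samples. All intervals cover counting error in these 2 libraries only, and reads were not marked by molecule, so several may come from 1 RNA. The libraries held 16281133 (WT) and 15412425 (Exon2KO) reads assigned to loci, and a gene with 0 reads could still hold up to 1.84e-05% and 1.95e-05% of them (3 reads). All 9 genes of the T cell list had reads in both: Cd3e had 5154 and 5262 reads, Cd3g had 16671 and 15187, and Foxp3 had 6991 and 20946. Ikzf2, named after its value was seen, had 8476 and 440. A read count over the whole of Foxp3 does not test the deletion of 1 exon.

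An antibody is built from heavy and light chains. A B cell first makes IgM and IgD from Ighm and Ighd, and class switching then deletes the DNA between the variable region and a downstream constant gene, so that the cell goes on to make IgG, IgE or IgA. In the gut most plasma cells make IgA, which is secreted as a dimer held by the J chain and carried across the epithelium by the polymeric Ig receptor, Pigr. Constant gene reads can come from rearranged or from germline transcripts, and from membrane or secreted forms. Counts per gene do not separate these.

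The constant genes that pair with the J chain can be read from the ends of their coding sequences. IgA and IgM heavy chains end in a tailpiece whose next-to-last residue is a cysteine that bonds to the J chain or to another heavy chain. The last 57 bases (18 codons and the stop codon) of the secreted form are shown for 6 heavy constant genes, from GENCODE M21 transcripts on GRCm38, minus strand of chromosome 12, written 5′ to 3′. Capitals mark the next-to-last codon.
Igha, chr12:113258768-113258824: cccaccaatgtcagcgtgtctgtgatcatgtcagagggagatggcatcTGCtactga
Ighm, chr12:113420867-113420923: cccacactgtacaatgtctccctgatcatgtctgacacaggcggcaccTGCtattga
Ighg1, chr12:113328976-113329032: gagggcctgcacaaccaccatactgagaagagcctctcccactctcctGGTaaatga
Ighg2b, chr12:113306389-113306445: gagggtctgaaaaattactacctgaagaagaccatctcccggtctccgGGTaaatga
Ighg2c, chr12:113287389-113287445: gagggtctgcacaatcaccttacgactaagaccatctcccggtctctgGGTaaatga
Ighd, chr12:113409578-113409634: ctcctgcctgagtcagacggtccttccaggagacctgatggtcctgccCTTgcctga
The cysteine codon TGC stands next to last in Igha and Ighm only among the 8 heavy constant genes. The 4 IgG genes have GGT there, Ighd has CTT and Ighe has CCC.

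Of all loci, Igkc and Igha had the most and the next most reads in both libraries. Igkc (ENSMUSG00000076609, chromosome 6, 70726435 to 70726966, plus strand), which encodes the constant part of kappa light chains, had 447269 reads in WT and 400030 in Exon2KO. Igha (ENSMUSG00000095079, chromosome 12, 113254830 to 113260236, minus strand), the IgA heavy chain gene, had 408840 and 334179. Jchain (ENSMUSG00000067149, chromosome 5, 88519809 to 88527891, minus strand) had 120089 and 113723 and ranked 8 and 9 among all loci. These 3 genes held nearly all reads of the set, which summed to 984626 in WT and 850650 in Exon2KO, or 6.05% and 5.52% of the assigned reads.

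**Figure D1:**
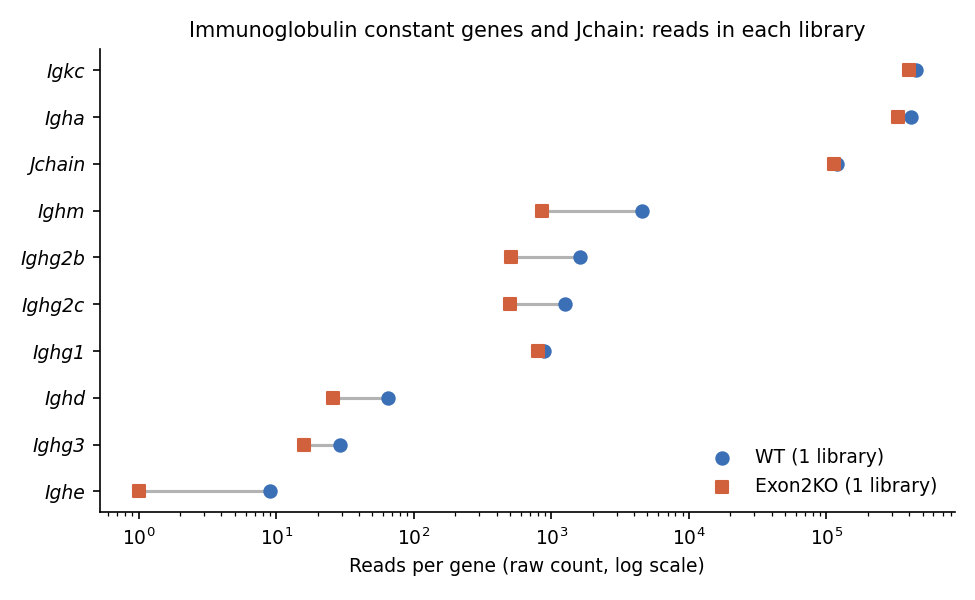
Reads per gene (raw counts, log axis) of the 10 genes in the WT library (circles) and the Exon2KO library (squares), 1 library each. Igkc, Igha and Jchain stand apart from the others at the right in both libraries, while Ighm, Ighg2b and Ighg2c lie further apart between libraries than Ighg1.

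Counts were scaled between libraries with TMM factors, and ratios are Exon2KO over WT on the log2 scale. A locus was called when its ratio reached 2-fold and its reads in the libraries summed to at least 10. All 10 genes had enough reads, 5 were called lower in the Exon2KO library (Ighm, Ighg2b, Ighg2c, Ighd and Ighe) and 0 higher. Over all 17363 such loci, 8.14% were called lower and 9.38% higher. Few reads widen ratios, so the 7 genes of the set with at least 1000 reads over both libraries are better set against the 4740 loci with as many reads. Of those 7, 3 (Ighm, Ighg2b and Ighg2c) were called lower, against 3.14% of the 4740 loci. The log2 ratio was below 0 for all 10 genes under TMM scaling, with a median of -1.05, and the median over all tested loci was 0.0035. Over the 4740 loci with at least 1000 reads the median was -0.044. The 10 genes include Ighe, Ighg3 and Ighd, which had few reads, and the interval of Ighg3 includes 0. Total-count scaling raises the median of all tested loci to 0.11, and under it Jchain lies at 0.00053. Fewer cells of a type and less RNA per cell cannot be told apart in such bulk counts.

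**Figure D2:**
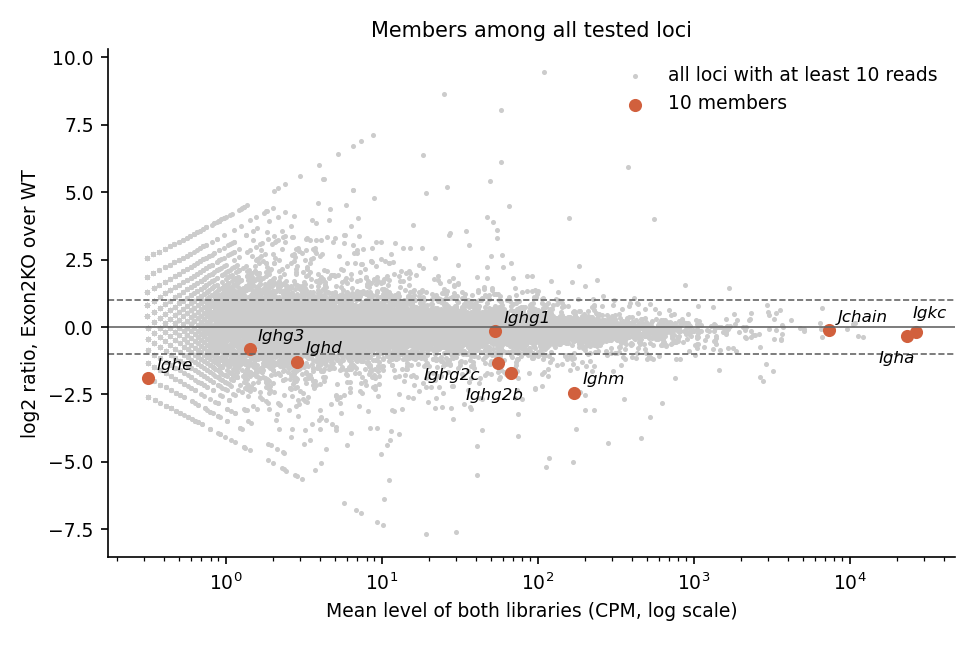
Log2 ratio of Exon2KO over WT against the mean level of both libraries (CPM, log axis) for all loci with at least 10 reads (grey) and the 10 genes (orange), with dashed lines at 2-fold. Ighm, at -2.44, lies below the main body of loci of similar level, and Igkc, Igha and Jchain lie close to 0 at the right edge.

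Igha, Igkc and Jchain, the genes of the secreted polymeric IgA molecule, differed little between the libraries. Jchain was at 7652 CPM (counts relative to the TMM-scaled library size) in the WT library and 7113 in the other, and its log2 ratio was -0.11 (95% interval -0.12 to -0.09). For Igkc the levels were 28498 and 25020 CPM, with a log2 ratio of -0.19 (-0.19 to -0.18). Igha was at 26049 and 20902 CPM, a log2 ratio of -0.32 (-0.32 to -0.31), which is a 1.25-fold lower level. None of these reached 2-fold. A ratio of 2 genes inside a library needs no scaling. There were 3.40 reads of Igha for each read of Jchain in WT and 2.94 in Exon2KO, a log2 difference of -0.21 (-0.23 to -0.20), and 0.914 and 0.835 reads of Igha for each read of Igkc (-0.13, -0.14 to -0.12). These small differences exceed counting error at this depth. Whether they exceed the spread between samples was not measured.

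Ranks and shares of reads grow with gene length as well as with level. Levels of different genes are therefore given as FPKM (reads scaled by gene length and depth), taken from the authors' table. Igkc stood at 53306 FPKM in WT and 47261 in Exon2KO, Igha at 9716 and 7873, and Jchain at 3025 and 2840. The FPKM of Igkc was thus 5.49 times that of Igha in WT and 6.003 times in Exon2KO. The deposited length of Igha, 2668 bases, covers the exon and untranslated end of the membrane form, whereas the secreted transcript has 1100 bases. The FPKM of a heavy constant gene read mostly from its secreted form is lowered by that difference.

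Ighm, which encodes the heavy chain of IgM, differed most among the members with at least 1000 reads. Ighm (ENSMUSG00000076617, chromosome 12, 113418558 to 113422730, minus strand) fell from 4561 reads in WT to 857 in Exon2KO, or from 291 to 53.6 CPM. The log2 ratio was -2.44 (-2.55 to -2.33), a 5.41-fold lower level. Its place among all loci moved from rank 547 to rank 3132. Relative to Igha, there were 11.2 reads of Ighm for 1000 reads of Igha in WT and 2.56 in Exon2KO, a log2 difference of -2.12 (-2.23 to -2.02). The 2 heavy genes with a J chain tailpiece thus lay far apart in their ratios. Relative to Jchain, the log2 difference of Ighm was -2.33 (-2.44 to -2.23).

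Ighd, which encodes the IgD heavy chain of mature naive B cells and is spliced from the same primary transcript as Ighm there, was near the lower end of what could be measured. It fell from 65 reads to 26 and from 2.17 to 0.86 FPKM, with a log2 ratio of -1.28 (-2.06 to -0.67). There were 70.2 reads of Ighm for each read of Ighd in WT and 32.96 in Exon2KO, a log2 difference of -1.09 (-1.75 to -0.43).

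The IgG genes did not move as a group. Ighg2b (ENSMUSG00000076613, chromosome 12, 113302965 to 113307933) fell from 1618 reads to 511, a log2 ratio of -1.69 (-1.84 to -1.55), and Ighg2c (ENSMUSG00000076612, chromosome 12, 113285325 to 113288932) fell from 1265 to 504, at -1.35 (-1.51 to -1.20). Ighg1 (ENSMUSG00000076614, chromosome 12, 113325240 to 113330523) had 881 and 803 reads, at -0.16 (-0.30 to -0.02), and was not called. Ighg3 had 29 and 16 reads, at -0.81 (-1.86 to 0.04), so a difference in it was not detectable at this depth. In mice, switching to IgG1 is tied to IL-4, to IgG2b to TGF-beta and to IgG2c to interferon gamma. Inside the libraries, 0.696 reads of Ighg1 were counted for each read of Ighg2c in WT and 1.59 in Exon2KO, a log2 difference of 1.19 (0.99 to 1.40).

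Ighg2b and Ighg2c are close paralogs, and how reads that match both were counted is not given in the sources used here. The coding sequences of their secreted forms were identical at 85.9% of 1007 aligned bases, and their transcripts share an exact run of 78 bases. Of the 50-base windows of the Ighg2b transcript, 5.26% occur in that of Ighg2c. No such window is shared between Ighg1 and either of them (identity 77.0% and 77.7%), or between Igha and Ighm (61.6%). The division of reads between Ighg2b and Ighg2c is therefore less certain than the other contrasts.

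Ighe, the IgE heavy chain gene, had 9 reads in WT and 1 in Exon2KO. Its log2 ratio with the prior count of 2 used for every call was -1.89. Without a prior count it was -3.20, with an interval from -8.65 to -0.35. It passed the minimum of 10 reads exactly and its call rests on these few reads.

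The isotype shares were computed as each gene's part of the reads of all 8 heavy constant genes, without regard to length, and serve to compare the libraries. Igha held 97.98% of these reads in the WT library (97.94 to 98.02, 95% Wilson interval) and 99.19% in the Exon2KO library (99.16 to 99.22), a difference of 1.21 percentage points (Newcombe interval 1.161 to 1.27). The other 7 genes together held 2.02% (1.98 to 2.06) and 0.807% (0.777 to 0.838), a 2.504-fold larger part in WT. Ighm held 1.09% (1.06 to 1.13) of the WT reads and 0.254% (0.238 to 0.272) of the Exon2KO reads. The 4 IgG genes held 0.909% (0.881 to 0.938) and 0.544% (0.520 to 0.570). Ighg1 alone among the 8 besides Igha took a larger share in Exon2KO, 0.238% (0.222 to 0.255) against 0.211% (0.198 to 0.226), a difference of 0.027 points (0.006 to 0.049).

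With Igha set aside, the remaining reads were divided differently in the libraries. Ighm made up 54.1% of the 8428 remaining WT reads (53.1 to 55.2) and 31.5% of the 2718 Exon2KO reads (29.8 to 33.3). Ighg1 made up 10.5% (9.82 to 11.1) and 29.5% (27.9 to 31.3), and the IgG genes together 45.005% (43.9 to 46.1) and 67.5% (65.7 to 69.2). Ighg2b took nearly the same share in each, 19.2% (18.4 to 20.1) and 18.8% (17.4 to 20.3), a difference of -0.40 points (-2.06 to 1.33). Ighg2c took 15.01% (14.3 to 15.8) and 18.5% (17.1 to 20.05). A larger share here goes with fewer reads of the gene itself, since the total of the non-IgA reads was smaller in Exon2KO.

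Among IgG reads alone, the gene with the most reads was Ighg2b in WT, with 42.7% (41.1 to 44.2), ahead of Ighg2c at 33.4% (31.9 to 34.9) and Ighg1 at 23.2% (21.9 to 24.6). In Exon2KO Ighg1 had the most reads, with 43.8% (41.5 to 46.1), and Ighg2b at 27.9% (25.9 to 30.0) and Ighg2c at 27.5% (25.5 to 29.6) had overlapping intervals. Per kilobase of deposited gene length the order changes, because the deposited Ighg2c model is shorter (1326 bases, against 2678 for Ighg2b and 2592 for Ighg1). Ighg2c then led in both libraries, with 49.96% and 42.8%, and Ighg1 took 17.8% in WT and 34.9% in Exon2KO. Per kilobase of the secreted transcripts, which differ little in length (1076 bases for Ighg1, 1114 for Ighg2b and 1111 for Ighg2c), the order by reads stays. Ighg2b then led in WT with 42.3%, ahead of Ighg2c at 33.1% and Ighg1 at 23.8%, and Ighg1 led in Exon2KO with 44.6%, ahead of Ighg2b and Ighg2c at 27.4% and 27.1%. The lead of Ighg2c thus rests on its short deposited gene model.

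**Figure D3:**
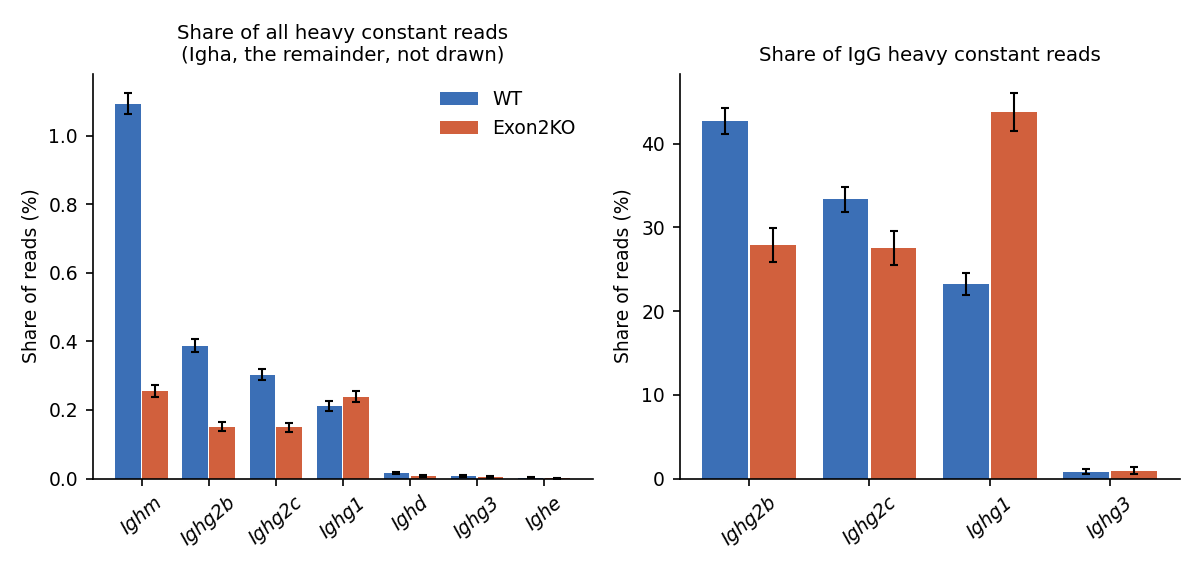
Left, share of all heavy constant reads (%) for the 7 genes other than Igha, and right, share of the IgG reads (%) for the 4 IgG genes, in WT (blue) and Exon2KO (orange), with 95% Wilson intervals as error bars and 1 library per genotype. Ighm drops from 1.09% to 0.254% on the left, and Ighg1 rises from 23.2% to 43.8% on the right.

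The heavy constant genes lie in the order Ighm, Ighd, Ighg3, Ighg1, Ighg2b, Ighg2c, Ighe and Igha over 168 kb of chromosome 12, in the direction of transcription. Igha is the last of them, starting 162 kb beyond the start of Ighm. Neither the level nor the ratio followed this order. In WT, FPKM was 153 for Ighm, 2.17 for Ighd, 0.732 for Ighg3 and 21.6 for Ighg1. Further along it was 38.3 for Ighg2b, 60.5 for Ighg2c, 0.360 for Ighe and 9716 for Igha. In Exon2KO the same genes stood at 28.6, 0.860, 0.4003, 19.5, 11.99, 23.9, 0.0397 and 7873 FPKM. The place of Ighg2c above Ighg2b rests on its short deposited gene model (1326 bases against 2678). Ighg1 sits between Ighg3 and Ighg2b and had the ratio nearest to 0 of the 8.

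**Figure D4:**
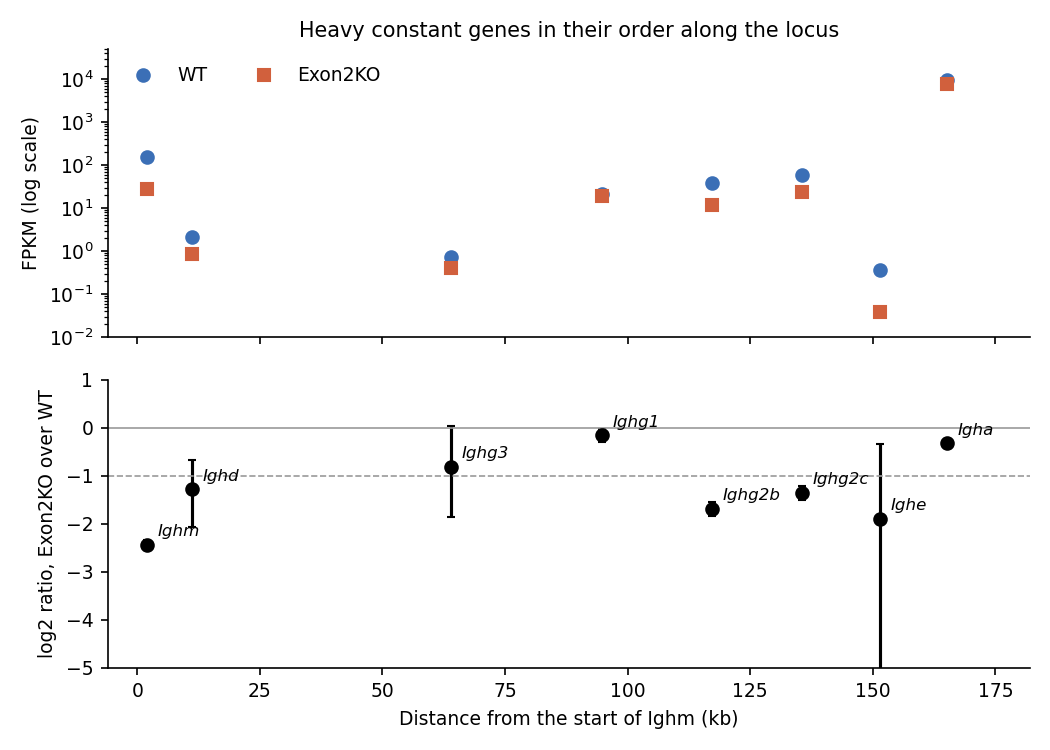
The 8 heavy constant genes by distance from the start of Ighm (kb), with the deposited FPKM in WT (circles) and Exon2KO (squares) on a log axis above and the log2 ratio with its 95% counting interval below (dashed line at 2-fold lower). Igha stands above all others in both libraries, Ighg1 has the ratio nearest to 0, and the interval of Ighe reaches below the axis.

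Light chain genes were read in the same libraries. Kappa chains use Igkc and lambda chains use Iglc1, Iglc2 and Iglc3, which had 20880, 5268 and 1993 reads in WT and 22570, 3823 and 2500 in Exon2KO. Iglc4 had 1 and 0 reads. The lambda genes together held 5.92% of the light chain reads in WT (5.85 to 5.99), against 6.74% (6.66 to 6.81) in Exon2KO. The ratio of Igkc to lambda reads went from 15.9 to 13.8, a log2 difference of -0.20 (-0.22 to -0.17). The lambda genes differed in direction. Iglc1 was at 0.09 (0.06 to 0.11), Iglc3 at 0.30 (0.21 to 0.39) and Iglc2 at -0.49 (-0.55 to -0.43), and none was called. The coding sequences of Iglc2 and Iglc3 are identical at 96.5% of bases, so the division of reads between them is uncertain.

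Variable segments followed their constant genes closely for heavy and kappa chains. Reads of Ighv segments amounted to 0.108 and 0.109 per heavy constant read in WT and Exon2KO, a log2 difference of 0.01 (-0.02 to 0.03), and reads of Igkv segments to 0.228 and 0.229 per Igkc read (0.00, -0.01 to 0.02).

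Markers of the cells that make antibody were read beside these values. Over all tested loci, 9.38% were called higher and 8.14% lower. The plasma cell list had 20 genes, all with enough reads, with a median log2 ratio of -0.04. Of these, 1 was called higher and 0 lower. Counts this small do not set the list apart from all tested loci. Its summed reads were 0.312% of the WT library and 0.353% of the Exon2KO library, and none of its genes was at 0. T cells also express several of them, including Xbp1. The only call, named after its value was seen, was Sdc1 (syndecan-1, 510 and 1213 reads, log2 ratio 1.22, 1.07 to 1.38), which epithelial cells express too; 7 of 10 epithelial genes were called higher as well, beside the 9.38% over all tested loci, and their part in it was not tested. Of its members, 10 had a ratio below 0. Herpud1, Xbp1, Sec11c, Creld2 and Ssr4, genes of the secretory stress response and the endoplasmic reticulum, lay between 0.07 and 0.16. The highest ratios that were not called, named after their values were seen, were those of Irf4 at 0.86 (0.74 to 0.99) and Prdm1 at 0.72 (0.57 to 0.86), transcription factors of plasma cells that Treg cells express too, and of the receptor gene Tnfrsf13b at 0.57 (0.46 to 0.68). Other genes of the endoplasmic reticulum in the list, named after their values were seen, lay below 0, with Derl3 at -0.41, Txndc5 at -0.32, Fkbp11 at -0.18 and Edem2 at -0.15. Ell2, which in plasma cells favours the secreted form of heavy chain transcripts, was at -0.39 (-0.47 to -0.32). The lowest ratio of the list was that of Pim2 at -0.56 (-0.66 to -0.45), which was not called. Pim2, and with it Tnfrsf17 at -0.30 and Pou2af1 at -0.24, were named after their values were seen. Named after its value was seen, Mzb1, a chaperone of B lineage cells, had 1980 and 1579 reads, at -0.35 (-0.45 to -0.26). There were 206 reads of Igha for each read of Mzb1 in WT and 212 in Exon2KO, a log2 difference of 0.04 (-0.06 to 0.13). The same difference was 0.25 (0.15 to 0.34) for Jchain to Mzb1 and 0.17 (0.07 to 0.26) for Igkc to Mzb1, so the 3 genes did not keep 1 ratio to Mzb1.

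The B cell list had 15 genes, of which 13 had enough reads, 3 were called lower and 1 higher, with a median of -0.46, beside 8.14% and 9.38% of all tested loci. Of its 13 tested genes, 11 had a ratio below 0. Counts of this size are not a result about B cell genes as a list. Its summed reads were 0.0436% of the WT library and 0.0351% of the Exon2KO library. Most of them were reads of Cd37, a membrane protein gene that T cells express too, which gave 4745 of 7099 reads of the list in WT and 3531 of 5404 in Exon2KO. Pax5, the B lineage factor that plasma cells switch off, was named after its value was seen and had 1 and 3 reads. The BAFF receptor gene Tnfrsf13c (114 and 49 reads) was at -1.21 (-1.76 to -0.75). The other genes called lower, named after their values were seen, were Ms4a1 (47 and 10) and Cd22 (19 and 6). Cd79a and Cd79b, which encode the signalling chains of the B cell receptor, were at -0.36 (-0.48 to -0.23) and -0.46 (-0.63 to -0.29) and were not called. Blk, a kinase of B cells that some T cells express as well, was the gene called higher (44 and 160, 1.79). There were 3.67 reads of Ighm for each read of Cd79a in WT and 0.866 in Exon2KO, a log2 difference of -2.08 (-2.24 to -1.92). Tnfrsf13c, Ms4a1 and Cd22 were lower in the same library as Ighm and Ighd, on few reads, and their part in that result was not tested.

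**Figure D5:**
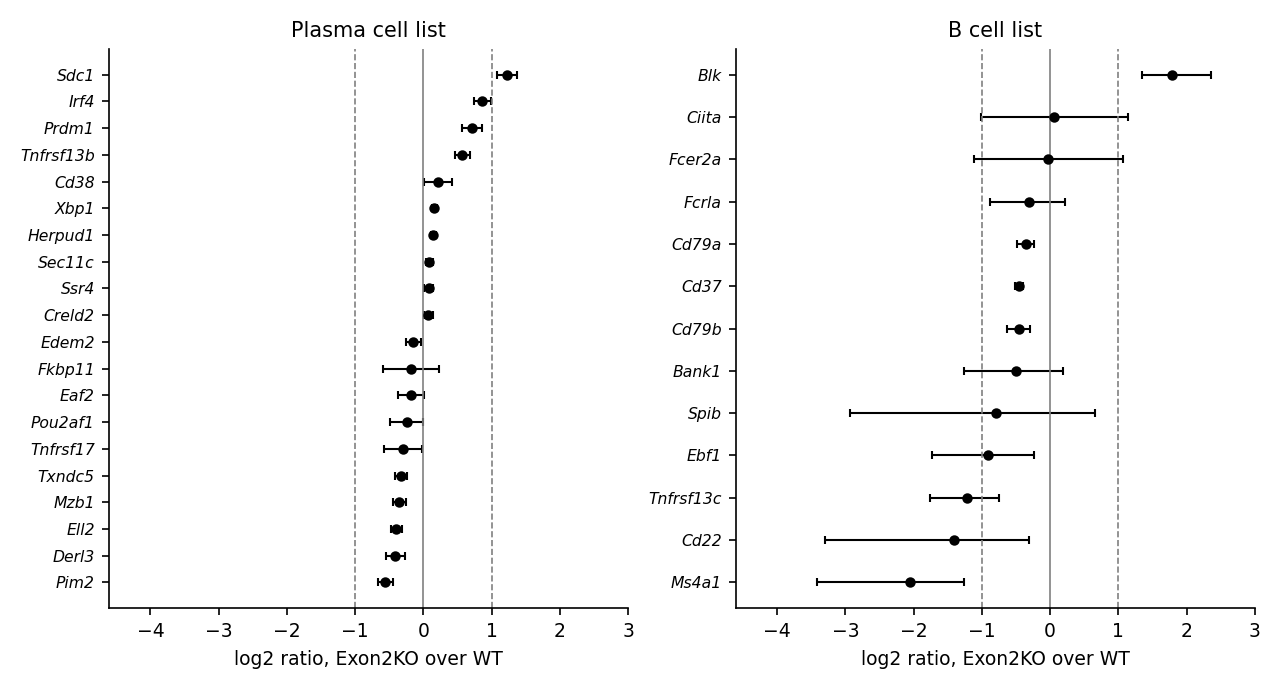
Log2 ratio of Exon2KO over WT with 95% counting intervals for the genes of the plasma cell list (left) and the B cell list (right) that had at least 10 reads, with dashed lines at 2-fold. On the left only Sdc1 lies past a dashed line, and on the right Ms4a1, Cd22 and Tnfrsf13c lie below 2-fold lower and Blk above 2-fold higher.

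Class switching uses general DNA repair genes. All 11 genes of the class switch list had enough reads, with 0 called lower and 1 higher, which is no more than over all tested loci. The called gene, Lig4, had 15 and 48 reads and was named after its value was seen. Genes for the signals that steer cells towards IgA went both ways, with 3 of 16 tested called higher and 1 lower, against 9.38% and 8.14% of all tested loci. Counts this small are not a result about the list. Il10, a cytokine that Treg cells make, rose from 14174 to 39614 reads (1.46, 1.43 to 1.48), while Tgfb1, the main switch factor for IgA, was at 0.11 (0.01 to 0.20) and Tgfbr2 at -0.25 (-0.41 to -0.10). Runx3, a factor for IgA switching in B cells that T cells also use, was at 0.61 (0.51 to 0.71). The other calls, named after their values were seen, were Il6 (11 and 94 reads) and Il21 (2 and 13, with an interval of 0.53 to 5.86), both higher, and Cd40 (137 and 23), lower.

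Of 11 genes for receptors that bind antibody, 9 had enough reads, and 1 was called higher and 0 lower, beside 9.38% and 8.14% of all tested loci. That is not a result about the receptors as a list. The called gene was Pigr, the epithelial receptor that carries polymeric IgA and IgM into the gut lumen, which went from 32 reads to 474, at 3.78 (3.34 to 4.43). Of the epithelial genes, 7 of 10 were called higher and 0 lower, beside 9.38% and 8.14% of all tested loci, with summed shares of 0.00776% in WT and 0.0385% in Exon2KO. Summed over both libraries, Car1, Krt8 and Krt19 had the most reads of the epithelial genes, mostly from Exon2KO. The carbonic anhydrase gene Car1 had 24 and 1830 reads (6.11). The keratin genes Krt8 and Krt19 had 160 and 1604 (3.28) and 81 and 1430 (4.08). In WT alone Epcam had the most. Epcam (782 and 609 reads) was at -0.39 (-0.54 to -0.23), and Muc2 (41 and 21), named after its value was seen, was at -0.93 (-1.82 to -0.20), the only ratios below 0 among the 10. The epithelial genes' part in the Pigr result was not tested. Fcgr2b, the inhibitory IgG receptor, was at -0.76 (-1.17 to -0.38) and was not called. Myeloid genes, which mark cells that carry IgG receptors, held 0.00431% and 0.00555%, with 0 of 7 tested called higher and 1 lower. Stromal and endothelial genes held 0.00733% and 0.0073%, with 2 of 8 tested called higher and 0 lower. Of the T cell list, 1 of 9 was called higher (Foxp3, 1.56) and 1 lower (Ikzf2, -4.29). With so few genes, the calls of the myeloid, stromal and T cell lists do not set these lists apart from the 9.38% and 8.14% of all tested loci.

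The authors' deposited table gives the same directions. Its log2 fold change was -2.44 for Ighm with an adjusted p-value of 2.63e-06, -1.69 for Ighg2b with 0.00333 and -1.35 for Ighg2c with 0.0348, and these 3 were the members below 0.05 there. In the authors' deposited table the adjusted p-value was 0.164 for Ighd, 0.307 for Ighe and 0.955 for Igha. With 1 library per genotype, no spread between samples of a genotype was measured that such a p-value could rest on. How the authors set the spread is not given in the sources used here. With edgeR's exact test and an assumed BCV (the relative spread between libraries of a genotype) of 0.2, the same 3 genes had adjusted p-values below 0.05 and were past 2-fold lower, against 3.09% of all tested loci. With 0.4, none of the 10 did, against 0.449% of all tested loci, and Ighm had the lowest adjusted p-value, 0.229.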

How the data were processed

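The deposited table holds, per locus, raw read counts for each library, FPKM, a scaled count signal (not used), and the authors' log2 fold change, p-value and adjusted p-value, per the file headers. The submitters' processing notes list HISAT2 2.0.5, StringTie 1.3.3b, featureCounts 1.5.0-p3, DESeq2 1.16.1 and build mm10, without roles. Strand use and the treatment of reads that match several loci are not given in the sources used here. Per the labels' protocols, libraries were made with an NEBNext Ultra kit from column-purified RNA. The coordinates of all 10 genes equal those of GENCODE M21 (GRCm38). Igkc lies inside the lincRNA gene Gm30211 (161 and 136 reads).

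From the counts, TMM factors (edgeR 4.0.16, R 4.3.3) scaled the libraries (0.964 and 1.04). A prior count of 2 enters the log2 ratios but not their 95% limits, which convert the Clopper-Pearson limits of the share of reads. A call needs 10 reads over both libraries and a 2-fold ratio, since 1 library per genotype leaves no replicate test. Shares have Wilson intervals and their differences Newcombe intervals; ratios inside a library have intervals from the 4 counts. Python 3.11.15, scipy 1.17.1 and statsmodels 0.14.6 were used, and the ratio and interval steps were tested on simulated data. Text names all 10 genes and, from each list, up to 6 genes with the most reads summed over both libraries, with exceptions marked. The genes and lists were chosen with earlier results of these data known. The values of 2 genes first placed in these lists were left out of every list count and are not reported here.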

Additional observations from a re-analysis of the deposited data

How the results depend on the processing

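DESeq2 size factors, total counts, upper quartile, TMM without immunoglobulin loci and Jchain, a prior count of 0.5, no filter, and an added exact binomial test each called Ighm, Ighd, Ighg2b, Ighg2c and Ighe lower and no gene of the set higher. Requiring 50 reads removed Ighe and a 1.5-fold threshold added Ighg3. In edgeR's exact test an assumed BCV of 0.2 left 3 called lower, as did an interval wholly past 2-fold (chosen after seeing the data), and a BCV of 0.4 left 0. Of 50 recomputed log2 ratios, 49 kept direction and call; Jchain under total counts was 0.00053.

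The rise of the Igha share, 1.21 points, became 1.70 per kilobase of gene and 0.994 per kilobase of secreted transcript, the latter chosen after seeing the data. Without Igha in the denominator the differences of Ighd (0.19), Ighg3 (0.24), Ighg2c (3.53) and the IgG genes together (22.5 points) turned positive. Their reads fell by a smaller factor than the remaining total did, which went from 8428 to 2718. The differences of Ighm (-22.6), Ighg2b (-0.40) and Ighe (-0.07) stayed below 0. The intervals of Ighd (-0.18 to 0.66), Ighg3 (-0.03 to 0.62), Ighg2b (-2.06 to 1.33) and Ighe (-0.17 to 0.11) include 0. Depth limits Ighe, Ighg3 and Ighd. No paired analysis was possible because each genotype has 1 library, so no library could be left out either.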

Other observations

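Loci of joining and diversity segments just upstream of Ighm also had reads, and the counts do not show whether these came from rearranged or germline transcripts. Ighj1 had 19 in WT and 0 in Exon2KO, Ighj2 had 4 and 0, Ighj4 had 10 and 3, and Ighj3 had 7 and 8. The diversity segment Ighd4-1 had 5 and 0. Summed over Iglv segments, variable reads per lambda constant read were 0.602 in WT and 0.655 in Exon2KO, a log2 difference of 0.12 (0.08 to 0.16), whereas the heavy and kappa ratios had intervals that include 0.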
